A study of Mus musculus with 24 samples.

Results

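The genes described here are 10 genes of de novo fatty acid synthesis, the route by which adipose tissue and liver build fatty acids from acetyl units: Acly, Me1, Acaca, Acacb, Fasn, Scd1, Scd2, Elovl5, Elovl6 and Thrsp. They were taken by symbol from the 24421 gene symbols counted in each library, and all 10 were counted in all 24 libraries and passed the filter on low counts in every comparison. Total RNA of adipose tissue from C57BL/6 mice aged 2 months was sequenced in 6 groups of 4 libraries. The groups are wild-type (WT) males and females, males and females carrying STAT5B Y665F, and males and females carrying STAT5B Y665H. STAT5B is a transcription factor switched on by growth hormone and cytokine receptors, and a tyrosine of its SH2 domain is phenylalanine in Y665F and histidine in Y665H. The labels call each change a point mutation and name no promoter, driver or further allele, and they do not say how the mice were made or whether they carried 1 or 2 mutant copies. They name neither the fat depot nor whether 1 library is 1 animal, so p-values measure the spread between libraries, which may be technical. A difference between the sexes and a difference between depots cannot be told apart.

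De novo synthesis starts when citrate leaves the mitochondrion and is cleaved in the cytosol to acetyl-CoA. Acetyl-CoA carboxylase turns acetyl-CoA into malonyl-CoA, fatty acid synthase assembles palmitate from these units with NADPH as the reductant, and elongases and desaturases then lengthen palmitate and add double bonds. In adipose tissue and liver the pathway is known to follow feeding, with insulin acting through SREBP-1c and glucose through ChREBP. These statements are background and not results.

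Levels are counts per 1e6 gene counts (CPM), with the mean ± SD of 4 libraries for a group. Gene counts summed to between 20.98 and 41.3 M per library, where M stands for 1e6, and 3 counts, the limit that a count of 0 allows, corresponded to 0.0726 to 0.143 CPM. These limits cover counting error only. Groups were compared by edgeR's quasi-likelihood test over all genes that passed the filter, with Benjamini-Hochberg adjustment, and a gene is said to have risen or fallen where the adjusted p was under 0.05. Fold changes are log2 values with their standard errors (SE). All 12 adipocyte markers were detected in all 24 libraries (Adipoq at 508 to 2366 CPM), whereas Alb, the defining hepatocyte gene, lay between 1.97 and 20.7 CPM. Of the other 7 hepatocyte markers, Cyp2e1 was at 393 to 3552 CPM and 6 reached at most 3.78 CPM in any library. Libraries differed in markers of other tissues. The 8 epididymis markers summed to at most 0.89 CPM in any female library and to between 1.06 and 11921 CPM in the WT males. The 15 skeletal muscle markers summed to between 61.6 and 2900 CPM in females.

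The promoters of the enzyme at the centre of the pathway and of the member with the smallest adjusted p are shown because both genes rose together between the mutant groups described below. Both come from the RefSeq promoter table of GRCm38.p6, 5′ to 3′, up to 250 bases before the listed start and without annotated exon bases. Capitals mark a CACGTG E-box or a CCAAT box, on either strand, so that ATTGG is CCAAT on the other strand and CCAATTGG holds an overlapping pair. The Fasn window is chr11:120824548-120824797 on the minus strand, and the Elovl5 window is chr9:77917115-77917363 on the plus strand.
Fasn: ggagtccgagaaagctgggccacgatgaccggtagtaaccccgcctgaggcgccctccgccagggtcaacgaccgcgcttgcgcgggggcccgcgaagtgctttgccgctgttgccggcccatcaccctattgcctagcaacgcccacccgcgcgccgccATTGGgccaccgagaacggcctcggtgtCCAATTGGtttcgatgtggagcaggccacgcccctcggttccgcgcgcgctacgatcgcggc
Elovl5: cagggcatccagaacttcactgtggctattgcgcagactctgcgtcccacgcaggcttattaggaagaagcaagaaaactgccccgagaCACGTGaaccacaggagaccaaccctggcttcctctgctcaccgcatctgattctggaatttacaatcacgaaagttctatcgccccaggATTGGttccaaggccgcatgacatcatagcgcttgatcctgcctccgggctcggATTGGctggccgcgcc
The table held windows for 8 of the 10 genes, and Scd1 and Scd2 were not matched. Letters were searched in the full 250 bases before each listed start, including any annotated exon bases. CCAAT was found, on either strand, for 5 of the 8 genes, Acacb, Elovl5, Fasn, Me1 and Thrsp. Counted by window, it was in 5 of these genes' 9 windows and in 33.8% of all 32851 windows. Both Thrsp matches lie in annotated exon bases. CACGTG was found only in the window of Elovl5, 161 bases before the start, and in 6.02% of all windows. Neither TCACNCCAC, the sterol response element letters searched, nor TTCNNNGAA, the letters of the site that STAT proteins bind, was found in any of the 8 genes' windows. Over all windows they were found in 1.05% and 7.02%. The Fasn, Acaca and Acacb windows and the Me1 window that holds CCAAT lie inside the spans of their genes, and these letters describe only the windows searched.

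Most of the 10 genes were highest in Y665H females. For 9 of the 10 genes the highest group mean was that of Y665H females, and for Scd2 it was that of WT males. The 10 genes together held 6.28 to 11.7% of all gene counts in Y665H females, 3.18 to 9.52% in WT females and 1.89 to 6.03% in Y665F females. In males they held 1.35 to 2.94% in WT, 2.06 to 2.96% in Y665F and 2.12 to 3.62% in Y665H. Every Y665H female library was thus above every Y665F female library and every male library, and WT females overlapped both female mutant groups. Scd1 and Fasn made up most of this share. Per kilobase of RefSeq transcript, the Y665H female mean was 8095 CPM for Scd1, 3094 CPM for Fasn, 1337 CPM for Thrsp and 1050.5 CPM for Acly, against 54.6 CPM for Elovl5.

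**Figure D1:**
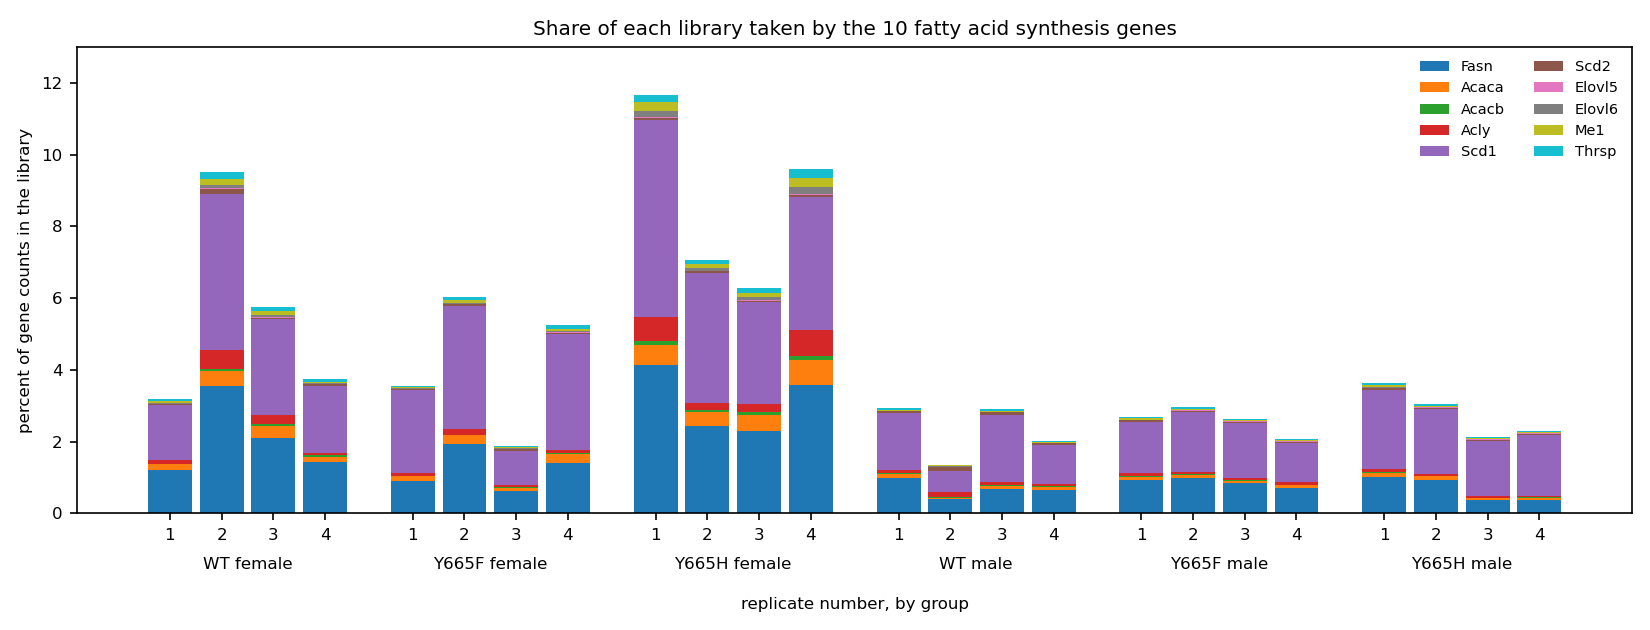
Percent of gene counts taken by the 10 genes in each of the 24 libraries (y axis), with replicate number by group on the x axis and one colour per gene. Y665H females lie between 6.28 and 11.7%, above all Y665F females and all males, and WT female 2 stands out within its group at 9.52%.

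Libraries of 1 group also spread. The ratio of the highest to the lowest library, taken as the median over the 10 genes, was 3.14 in WT females, 3.29 in WT males, 2.56 in Y665F females, 1.98 in Y665H females, 2.11 in Y665H males and 1.53 in Y665F males. WT female 2 was the highest of its group for all 10 genes, and WT female 1 was the lowest for 8. Y665F female 3 was the lowest of its group for 7 genes and had the lowest adipocyte marker sum among the females, 18207 CPM, and the highest sum of epithelial markers, 1848 CPM. WT male 2 was the lowest of its group for 6 genes (Fasn, Acaca, Acacb, Scd1, Me1 and Thrsp) and the highest for Acly, Scd2 and Elovl6. That library had the lowest adipocyte marker sum of all, 11288 CPM, and the highest sum of epididymis markers, 11921 CPM.

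**Figure D2:**
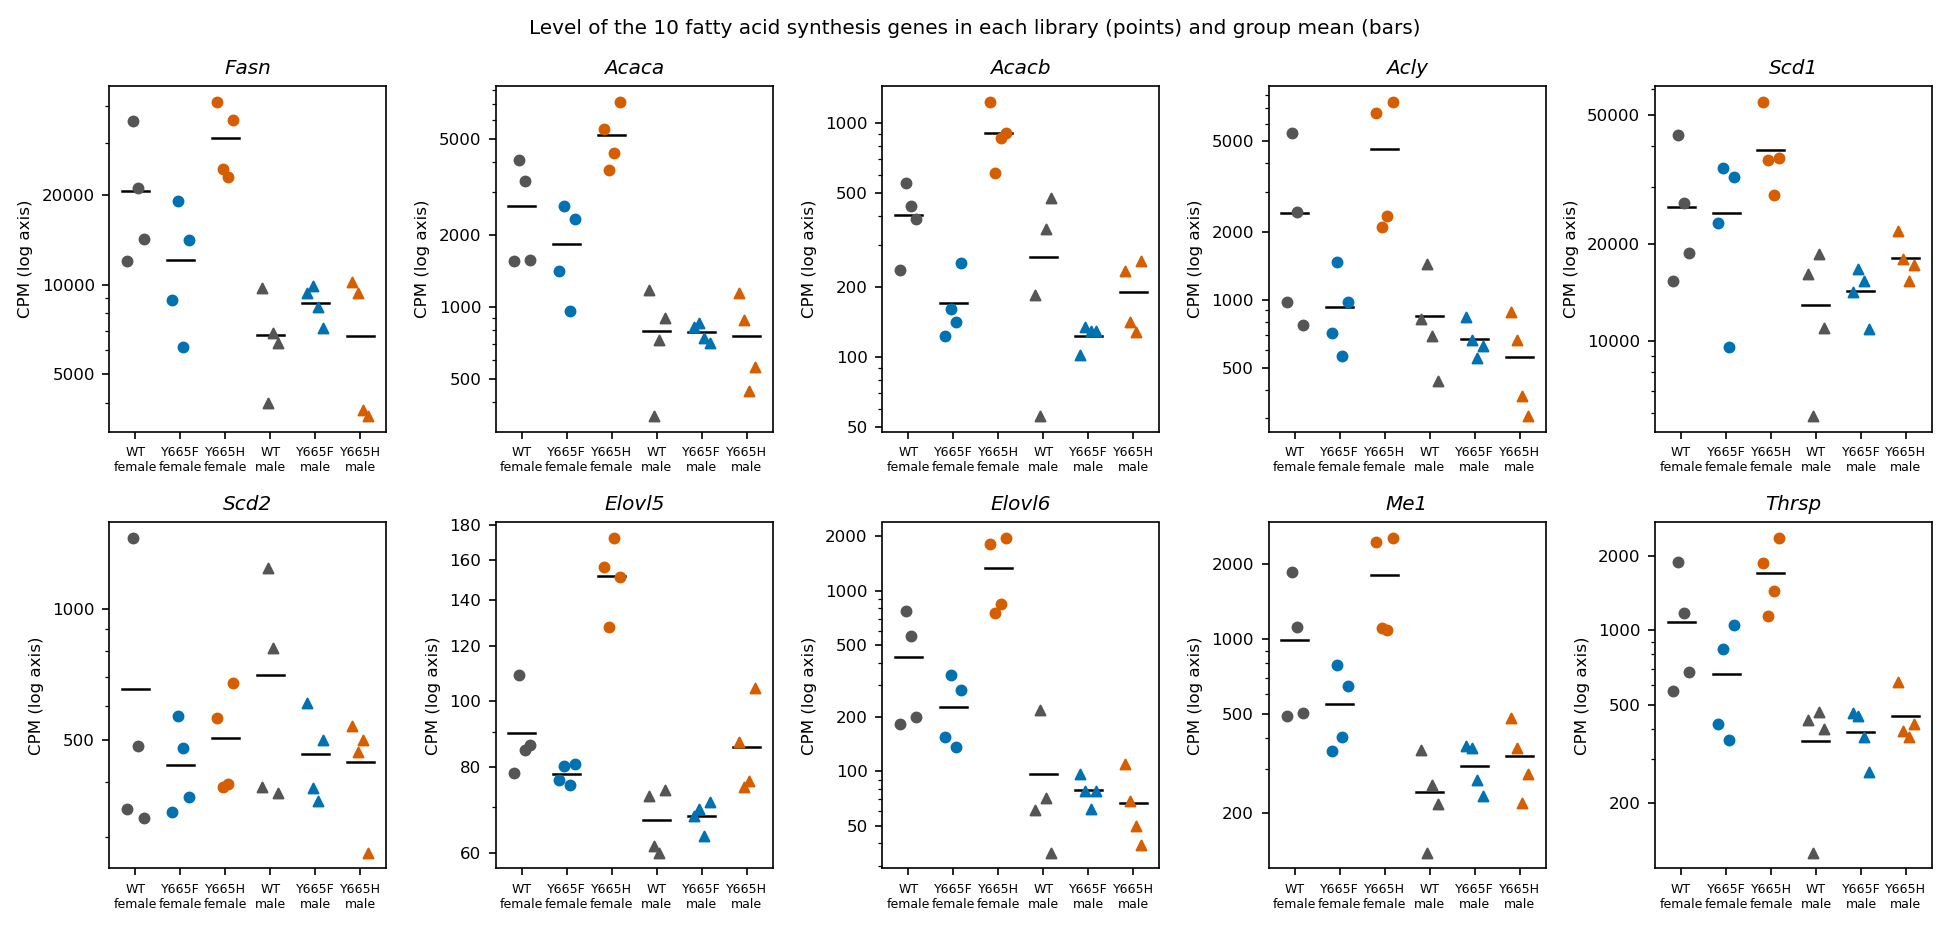
Level of each of the 10 genes in CPM on log axes, 1 panel per gene, with 1 point per library (circles for females, triangles for males) and a bar at the group mean. In 8 panels the 4 Y665H females lie above the 4 Y665F females, and the exceptions are Scd1 and Scd2.

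The comparison of Y665H with Y665F asks whether the 2 changes at the same residue differ from each other. In females, 8 of the 10 genes rose in Y665H relative to Y665F (edgeR, adjusted p under 0.05), from 2.15-fold for Elovl5 to 6.50-fold for Elovl6, and none fell. Of all 15493 genes tested, 17.4% were called in this comparison and 8.77% were called as higher in Y665H. The same 8 genes had non-overlapping groups, which held in that direction for 6.62% of all genes. The median log2 fold change of the 10 genes was 1.58, against -0.03 over all genes tested. Scd1 and Scd2 did not pass. In males none of the 10 genes was called between the mutants, where 1.03% of all genes were, and the log2 fold changes ran from -0.41 to 0.56. At an unadjusted p under 0.05 there were 2 of the 10, Acacb and Elovl5, where 18% of all genes were, so this share is near the background. DESeq2 called none of the 10 and 6.82% of all genes. Elovl5 was at 74.7 to 104 CPM in Y665H males and at 63.6 to 71.1 CPM in Y665F males, without overlap, as was so for 6.29% of all genes in that direction.

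Acly, the ATP-citrate lyase that makes cytosolic acetyl-CoA from citrate, was at 6678, 2089, 2341 and 7489 CPM in Y665H females 1 to 4. In Y665F females it was at 709.8, 1474, 562 and 975 CPM. The groups did not overlap, although Y665H females 2 and 3 were far below Y665H females 1 and 4. The log2 fold change was 2.47 (SE 0.53, edgeR adjusted p = 0.0161). Me1, the cytosolic malic enzyme that yields NADPH, was at 2475, 1110.4, 1094 and 2552 CPM in Y665H females and at 355, 789, 405 and 648 CPM in Y665F females. The same pair of Y665H libraries, 1 and 4, was high. Me1 rose by 1.87 (SE 0.40, edgeR adjusted p = 0.0168).

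Acaca encodes the cytosolic carboxylase whose malonyl-CoA feeds synthesis. Its level was 5498, 3718, 4361 and 7145 CPM in Y665H females and 1404, 2622, 964 and 2314 CPM in Y665F females, without overlap. Acaca rose by 1.64 (SE 0.36, edgeR adjusted p = 0.0182). Acacb encodes the carboxylase of the outer mitochondrial membrane, whose malonyl-CoA is known to restrain entry of fatty acids into mitochondria. It was at 1232, 611, 859.6 and 909 CPM in Y665H females and at 123, 160.3, 141 and 253 CPM in Y665F females. Every Y665H female was above every Y665F female. Acacb rose by 2.57 (SE 0.30, edgeR adjusted p = 0.00212), 5.96-fold. The ratio of Acaca to Acacb counts was 5.87 ± 1.49 (SD, n = 4) in Y665H females, 10.9 ± 4.06 in Y665F females and 6.40 ± 1.62 in WT females, and the ranges of all 3 groups overlapped.

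Fasn, the synthase that assembles palmitate, was at 41275, 24432, 23003 and 35688 CPM in Y665H females. In Y665F females it was at 8871, 19172, 6147 and 14148 CPM. The groups did not overlap, and Y665F female 2 came closest to the Y665H libraries. Fasn rose by 1.51 (SE 0.42, edgeR adjusted p = 0.0406), the adjusted p nearest to the threshold among the 8 genes. Thrsp, the Spot 14 protein long known as a marker of lipogenic tissue, was at 1882, 1144, 1440.0 and 2366 CPM in Y665H females and at 417, 839.7, 360.4 and 1048 CPM in Y665F females. Thrsp rose by 1.50 (SE 0.39, edgeR adjusted p = 0.0334).

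Elovl6, which lengthens palmitate to stearate, had the largest fold change of the 10 genes. It was at 1809, 756, 843 and 1952 CPM in Y665H females and at 155, 339.9, 136 and 282 CPM in Y665F females. All 4 Y665H libraries were above all Y665F libraries, and libraries 1 and 4 were again the high pair. Elovl6 rose by 2.70 (SE 0.45, edgeR adjusted p = 0.00652). Elovl5, which lengthens polyunsaturated fatty acids, was the least variable: 157, 128, 172 and 151 CPM in Y665H females and 76.6, 80.3, 75.2 and 80.9 CPM in Y665F females. The Y665F libraries were almost level and every Y665H library was above them. Elovl5 rose by 1.11 (SE 0.11, edgeR adjusted p = 0.00148).

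The 2 stearoyl-CoA desaturases, which place the first double bond in saturated fatty acids, differed from the other 8 genes. Scd1 was at 54982, 36259, 28301 and 36926 CPM in Y665H females and at 23142, 34239, 9588 and 32263 CPM in Y665F females. The groups overlapped because Y665F females 2 and 4 were above Y665H female 3. The log2 fold change was 0.80 (SE 0.44, edgeR adjusted p = 0.234). Scd2, the paralog also on chromosome 19, was at 562, 391, 397 and 677 CPM in Y665H females and at 342, 567, 479 and 369 CPM in Y665F females. These groups were interleaved, and the estimate was 0.35 (SE 0.24, edgeR adjusted p = 0.322). The paralogs are similar in sequence, so reads shared between them may have been dropped or split in the counting.

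Leaving out 1 library left between 3 and 8 genes called in Y665H females against Y665F females. Acacb, Elovl5 and Elovl6 passed in all 8 such fits. Without Y665F female 1 they were the only 3 called, and without Y665H female 1 the count was 5. Fasn passed in 2 of the 8 fits, with adjusted p between 0.0314 and 0.109, and Thrsp passed in 4. Library totals, used for scaling instead of TMM, also left 8 called, while the share of all called genes that were higher in Y665H went from 50.5 to 24.9%.

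**Figure D3:**
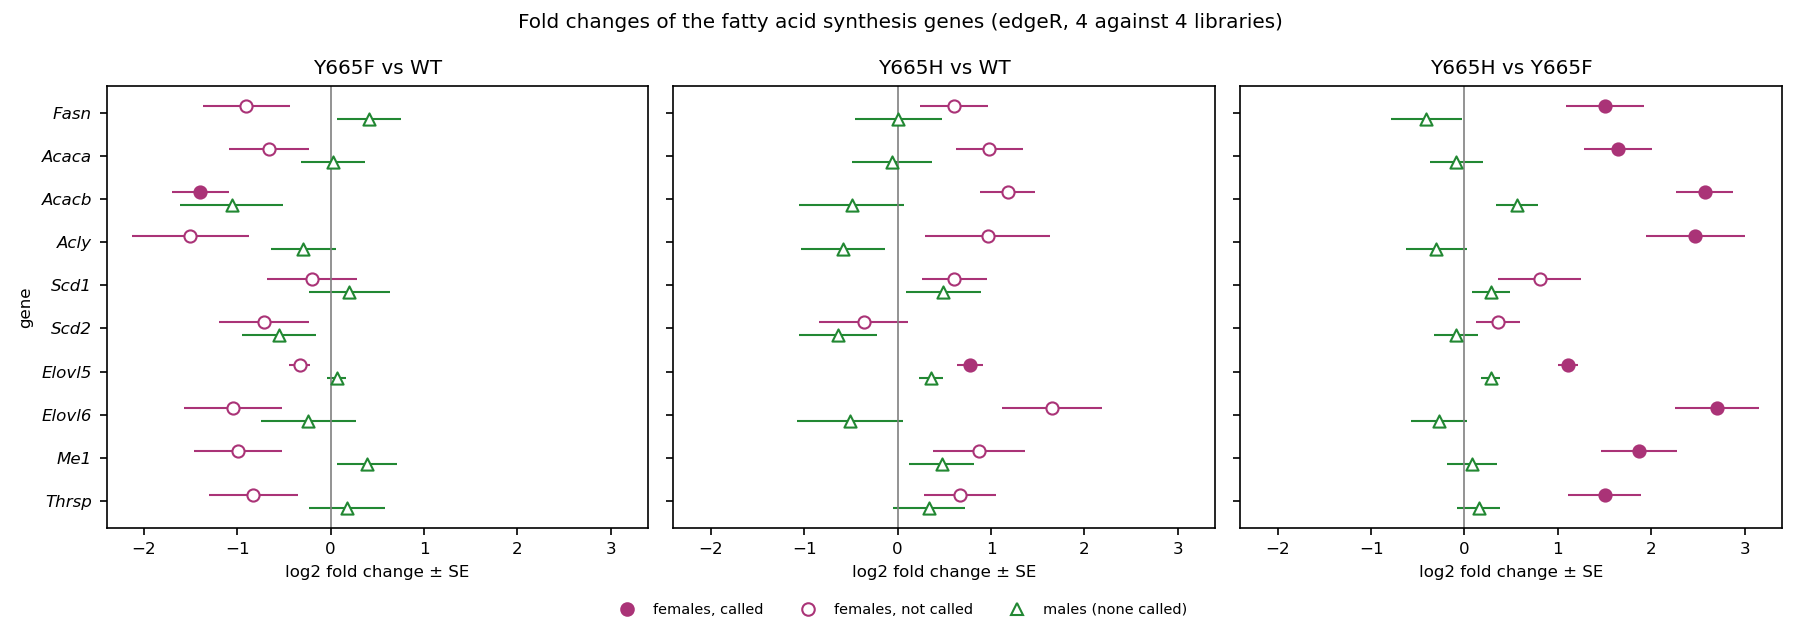
Log2 fold change of each gene (x axis) with its SE as a horizontal bar, 1 panel per comparison of genotypes, with circles for females, triangles for males and filled symbols for genes with an edgeR adjusted p under 0.05. In Y665H against Y665F, 8 female symbols are filled between 1.11 and 2.70, whereas no male symbol is filled in any panel.

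Markers of cell types moved along with these genes in females. The adipocyte marker sum was 34410 to 41748 CPM in Y665H females and 18207 to 30770 CPM in Y665F females, without overlap. Of the 12 adipocyte markers, 11 had positive log2 fold changes and 1 a negative one. Only 2 of the 12 were called as higher, where 8.77% of all genes were. In bulk tissue, more adipocytes and more RNA per adipocyte cannot be told apart. With libraries scaled by the adipocyte markers, an alternative chosen after seeing the data that moved the median of all genes from -0.03 to -0.75, 7 of the 10 genes were called as higher in Y665H females. Over all genes on that scale, 9563 of 15493 were called and 0.994% of those tested were called as higher. On that scale Acacb was at 1.90 (SE 0.27, edgeR adjusted p = 0.0012), Elovl6 at 2.12 and Fasn at 0.93. Elovl5 was at 0.40 (SE 0.20, edgeR adjusted p = 0.0867) and Scd2 turned to -0.35. Thermogenic markers summed to 61.7 to 254 CPM in Y665H females and 21.8 to 43.5 CPM in Y665F females. All 12 macrophage markers were detected in both groups, with sums of 716 to 1027 CPM in Y665H females and 1366 to 2199 CPM in Y665F females, and 6 fell in Y665H. B cell markers summed to 12.6 to 17.9 CPM in Y665H females and 33.5 to 44.6 CPM in Y665F females, and 8 of 10 fell. T and NK cell markers summed to 6.06 to 28.3 CPM and 28.98 to 40.5 CPM in the same order, and 8 of the 13 tested fell. None of these 3 immune sums overlapped between the groups. The hepatocyte list, nearly all of it Cyp2e1, summed to 1799 to 3558 CPM in Y665H females and 864 to 1229.7 CPM in Y665F females. The part of these markers in the result was not tested. Muscle markers ran from 61.6 to 2900 CPM in Y665H females and from 82.7 to 209.9 CPM in Y665F females, and 9 of 15 were called as higher in Y665H. Y665H female 1, with the lowest muscle sum of all 12 female libraries, was the highest of its group for 3 of the 10 genes. Y665H female 4, with a muscle sum of 993 CPM, was the highest for 6. Y665H females 2 and 3, 1 of which held the 2900 CPM, were the lowest of the group for 7 and 3 genes. The part of the muscle markers in the result was not tested either. Without Y665F female 3, the library with the highest epithelial sum, all 8 calls remained.

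In females, the sex in which genes of the 10 were called between the mutants, each mutant was also compared with WT. The 2 comparisons share the WT libraries. In Y665F females all 10 log2 fold changes were negative, from -1.50 for Acly to -0.20 for Scd1, with a median of -0.87 against 0.02 over all genes. Only Acacb was called, where 3.33% of all genes were called and 1.02% were called as lower. Acacb was at 236, 555, 440.0 and 388 CPM in WT females, and the groups overlapped because Y665F female 4, at 253 CPM, was above WT female 1. Acacb fell by 1.39 (SE 0.30, edgeR adjusted p = 0.0467). The call was lost when any 1 of the 8 libraries was left out, with adjusted p from 0.0524 to 0.131. Acly (-1.50, SE 0.63, edgeR adjusted p = 0.176) and Elovl6 (-1.04, SE 0.53, edgeR adjusted p = 0.24) did not pass. WT females ranged from 772 to 5463 CPM for Acly and from 182 to 774 CPM for Elovl6. Cell type markers moved here too. The adipocyte sum was 18207 to 30770 CPM in Y665F females and 29638 to 34984 CPM in WT females, with overlap, and none of the 12 markers was called. Thermogenic markers summed to 21.8 to 43.5 CPM against 62.3 to 120 CPM in WT, and 5 of 8 fell. Macrophage markers summed to 1366 to 2199 CPM against 938 to 1313 CPM without any call, while 8 T and NK cell markers and 4 B cell markers rose. Muscle markers summed to 82.7 to 209.9 CPM against 140 to 1681 CPM in WT. All 14 muscle markers tested had negative log2 fold changes, with a median of -4.25, and 0 were called. The part of these markers in the result was not tested.

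In Y665H females 9 of the 10 log2 fold changes against WT were positive, with a median of 0.83 against 0.00 over all genes, and Scd2 was at -0.36. Only Elovl5 was called, where 3.34% of all genes were called and 1.53% were called as higher. Elovl5 was at 78.5, 109, 84.7 and 86.2 CPM in WT females, all below the lowest Y665H female. Elovl5 rose by 0.78 (SE 0.14, edgeR adjusted p = 0.0271), 1.71-fold. The call was lost in 5 of the 8 fits that left out 1 library, without WT female 1 or 4 or Y665H female 1, 3 or 4. Acacb also had non-overlapping groups, as did 6.45% of all genes in that direction, and its estimate, 1.18 (SE 0.30, edgeR adjusted p = 0.0624), did not pass. Elovl6 was at 1.66 (SE 0.53, edgeR adjusted p = 0.113). WT female 2, at 774 CPM, overlapped the lowest Y665H female, at 756 CPM. In this comparison 1 adipocyte marker rose and 1 fell, 3 T and NK cell markers fell, and no macrophage, B cell or thermogenic marker was called.

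WT females fell into 2 high and 2 low libraries for most of the genes. Fasn was at 12039, 35508, 21083 and 14183 CPM, so libraries 2 and 3 were high and 1 and 4 low. Muscle markers summed to 965, 140, 175 and 1681 CPM in the same order, and the adipocyte sum, 29638 to 34984 CPM, was lowest in library 2. The part of the muscle markers in this spread was not tested.

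In males no gene of the 10 was called for Y665F or Y665H against WT with edgeR, and no gene at all was called in either comparison when only the 8 libraries compared were fitted. With all 24 libraries in the fit, 2261 genes were called for Y665F and 203 for Y665H, and none of the 10. DESeq2 called none of the 10 either, with 6.8% of all genes called for Y665F and 0.742% for Y665H. At an unadjusted p under 0.05 there were 0 of the 10 for Y665F and 1 for Y665H, where 17.1 and 11.4% of all genes were. Log2 fold changes of the 10 genes ran from -1.06 (Acacb) to 0.41 (Fasn) in Y665F males and from -0.64 (Scd2) to 0.49 (Scd1) in Y665H males. Elovl5 was the gene at an unadjusted p under 0.05, with 87.1, 74.7, 76.2 and 104 CPM in Y665H males and 72.5, 61.5, 60.0 and 74.1 CPM in WT males. These groups did not overlap, as was so for 2.43% of all genes in that direction, and the log2 fold change was 0.36 (SE 0.13, edgeR adjusted p = 0.402). Fasn ranged from 4000.0 to 9768 CPM in WT males, 7144 to 9883 CPM in Y665F males and 3604 to 10187 CPM in Y665H males, and all 3 groups overlapped. Epididymis markers summed to 1.06, 11921, 3147 and 1242 CPM in WT males 1 to 4. In Y665F males they summed to between 0.0251 and 1109 CPM, and in Y665H males to between 1.85 and 1631 CPM. The part of the epididymis markers in the spread among WT males and in these comparisons was not tested.

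Whether the difference between the mutants itself depended on sex was tested as an interaction over 16 libraries. It was negative, meaning a smaller difference in males, for all 10 genes, with a median of -1.78 on the log2 scale. Acacb (-2.03, SE 0.39, edgeR adjusted p = 0.0302), Elovl5 (-0.84, SE 0.14, edgeR adjusted p = 0.0232) and Elovl6 (-2.99, SE 0.57, edgeR adjusted p = 0.0302) were called, where 0.868% of all genes were called and 0.692% were called as lower. Acly had the second largest estimate, -2.78 (SE 0.66, edgeR adjusted p = 0.0609), and did not pass. In Y665H males Elovl6 was at 109.9, 68.9, 49.7 and 39.2 CPM and in Y665F males at 97.0, 77.8, 62.0 and 77.7 CPM, so the groups overlapped fully, unlike the females. DESeq2 called 7 of the 10 genes, where it called 4.12% of all genes. Scaling by adipocyte markers left 0 of the 10, where 0.225% of all genes were called. Leaving out 1 of the 16 libraries left 0 to 3 calls. No call was left without Y665F male 1, 2 or 3, Y665H male 3, Y665F female 1 or Y665H female 1, and 1 was left without Y665H male 1, 2 or 4, Y665F female 3 or 4, or Y665H female 4. For the effect of each mutant against WT, the interaction with sex was called for none of the 10 genes, where 0 and 0.0119% of all genes were called for Y665F and Y665H. There were 3 genes of the 10 at an unadjusted p under 0.05 in each case, where 21.8 and 18.3% of all genes were. DESeq2 called none of the 10, and 7.1 and 4.61% of all genes. In the interaction between the mutants, 7 of 15 muscle markers and 2 of 8 thermogenic markers were called as lower, and their part in the result was not tested.

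In WT mice all 10 log2 fold changes of males against females were negative, with a median of -1.71 against 0.04 over all genes. With edgeR, 4 genes fell, where 13.1% of all genes were called and 5.95% were called as lower: Fasn (-1.76, SE 0.46, adjusted p = 0.0429), Acaca (-1.89, SE 0.47, adjusted p = 0.0375), Elovl5 (-0.57, SE 0.14, adjusted p = 0.0335) and Me1 (-2.18, SE 0.51, adjusted p = 0.0314). Acaca was at 1178, 351, 731 and 903 CPM in WT males and 1554, 4089, 3340.0 and 1573 CPM in WT females, without overlap. Fasn was at 9768, 4000.0, 6881 and 6347 CPM in WT males, all below the WT females. Me1 was at 358, 138, 259.8 and 216 CPM in WT males and 493, 1873, 1118 and 505 CPM in WT females. Thrsp had non-overlapping groups as well, at -1.76 (SE 0.51, edgeR adjusted p = 0.0553), and 7.01% of all genes did not overlap in that direction. Elovl6 had the largest estimate, -2.30 (SE 0.70, edgeR adjusted p = 0.061), but WT male 2 was at 219 CPM, above WT females 1 and 4. Scd2 did not differ beyond its spread (-0.05, SE 0.59, edgeR adjusted p = 0.966), and its direction turned when libraries were scaled by their totals (0.14). DESeq2 called 8 of the 10 genes and 24.5% of all genes. Between 0 and 5 genes were called when 1 library was left out: 5 without WT male 1, 1 without WT male 2, the library rich in epididymis markers, and 0 without any of the other 6 libraries. The adipocyte sum was 11288 to 29527 CPM in WT males against 29638 to 34984 CPM in WT females. Fibroblast and progenitor markers summed to 3375 to 4988 CPM in WT males against 6110 to 11536 CPM in WT females, and 6 of 8 fell. Muscle markers summed to 51.7 to 63.3 CPM against 140 to 1681 CPM, and 11 of the 14 tested fell. Thermogenic markers summed to 33.0 to 53.5 CPM against 62.3 to 120 CPM, and 6 of 8 fell. Epithelial markers went the other way, with 3 called as higher in males. The part of these markers in the result was not tested.

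The rest of the pathway was read from lists of other genes. These genes were not read with adipocyte marker scaling, and the part of the cell type and muscle markers in their changes was not tested. Of 15 regulators of lipogenesis, 7 rose and none fell in Y665H relative to Y665F females, with a median log2 fold change of 0.35. Over all genes, 8.77% were called as higher in that comparison. Insig1, which holds SREBP proteins in the endoplasmic reticulum and is itself an SREBP target, was at 545.7, 552, 1041 and 856 CPM in Y665H females and 122, 218, 121 and 179 CPM in Y665F females. Insig1 rose by 2.36 (SE 0.29, edgeR adjusted p = 0.00216). Srebf1, the gene of SREBP-1, rose by 1.10 (SE 0.22, edgeR adjusted p = 0.0136), Mlxipl, the gene of ChREBP, by 1.00 (SE 0.25, edgeR adjusted p = 0.0272) and Nr1h3, the gene of LXR alpha, by 0.58 (SE 0.13, edgeR adjusted p = 0.0206). Mlycd, whose enzyme breaks malonyl-CoA down and so runs opposite to the carboxylases, rose by 0.63 (SE 0.11, edgeR adjusted p = 0.00679). Mid1ip1, a paralog of Thrsp, was at 0.58 (SE 0.19, edgeR adjusted p = 0.0644) and did not pass. Leaving out 1 library lost the call in 4 of 8 fits for Mlxipl and in 2 for Nr1h3, and in none for Insig1, Srebf1 and Mlycd.

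Of 21 genes that supply carbon and NADPH to the pathway, 16 rose in Y665H relative to Y665F females and all 21 had positive fold changes, with a median of 1.05. For this list and those that follow, the share of all genes called as higher was 8.77%. Slc25a1, the carrier that exports citrate from mitochondria, was at 1081, 607, 622 and 1130.1 CPM in Y665H females and 191, 375, 144 and 285 CPM in Y665F females, a rise of 1.93 (SE 0.36, edgeR adjusted p = 0.00987). Aacs, which activates acetoacetate for lipid synthesis, rose by 1.66 (SE 0.20, edgeR adjusted p = 0.00216). Cs, citrate synthase, rose by 0.97, Pdha1, a subunit of pyruvate dehydrogenase, by 1.14, Taldo1, of the pentose phosphate pathway, by 0.95, and Acss2, which makes acetyl-CoA from acetate, by 1.83. G6pdx, the first enzyme of the pentose phosphate pathway, was at 0.50 (SE 0.19, edgeR adjusted p = 0.108). Of 14 other desaturation and elongation enzymes tested, 4 rose: Tecr (1.16), Hsd17b12 (1.29), Fads1 (0.83) and Elovl3. Tecr and Hsd17b12 carry out the last and the second step of the elongation cycle that Elovl5 and Elovl6 open. Elovl3, an elongase of very long chains known from brown and cold-exposed fat, was at 26.7, 4.97, 1.87 and 4.29 CPM in Y665H females, while the Y665F females held 0, 1, 6 and 2 counts. Of the genes named from the supply and elongation lists, Acss2 and Fads1 lost their calls in 3 of 8 fits without 1 library. Of 6 genes of mitochondrial fatty acid synthesis tested, Mcat (0.50), Acsf3 (0.52) and Oxsm (0.48) rose. In males none of these lists held a call between the mutants by edgeR, where 1.03% of all genes were called. The list medians in males were -0.06, 0.13, 0.06 and 0.02 in the order above.

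**Figure D4:**
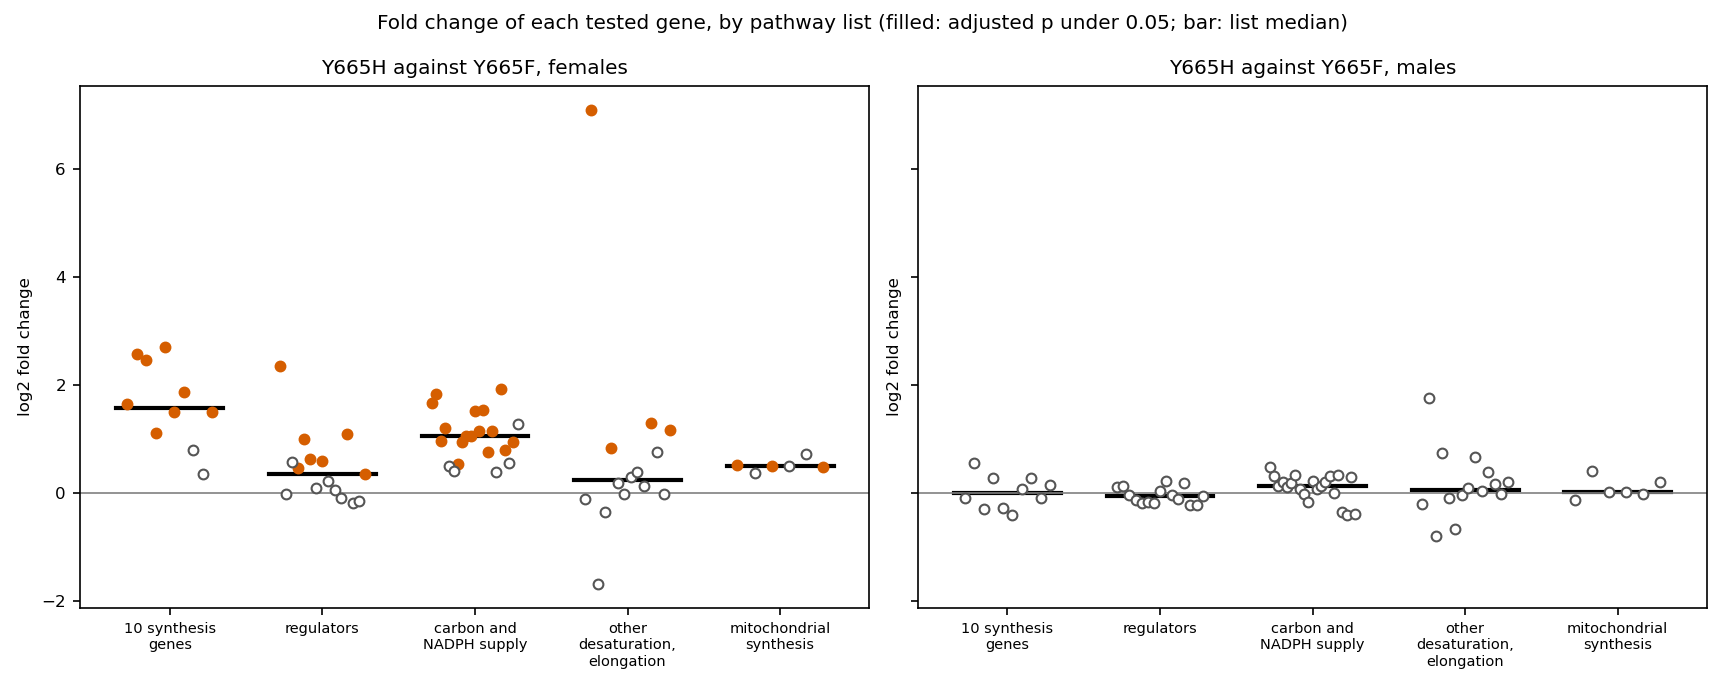
Log2 fold changes of single genes (points) and the median (bar) for the 10 genes and the 4 other lists, in Y665H against Y665F females and males, with filled points for genes with an edgeR adjusted p under 0.05. In females the medians are 1.58 for the 10 genes and 1.05 for carbon and NADPH supply, and in males no point is filled.

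In Y665F females against WT, Insig1 fell by 1.88 (SE 0.38, edgeR adjusted p = 0.0414) and Aacs by 1.01 (SE 0.21, edgeR adjusted p = 0.0423). No other gene of the 4 lists was called, where 3.33% of all genes were. Both calls were lost when any 1 of the 8 libraries other than Y665F female 3 was left out, with adjusted p up to 0.120 and 0.125. In Y665H females against WT, Pdha1 (0.93), Idh1 (0.69), Elovl3 (4.53), Hsd17b12 (0.71) and Mcat (0.51) rose and Fads3 (-0.61) fell, where 3.34% of all genes were called. Leaving out 1 library lost the call in 7 of 8 fits for Pdha1, Idh1 and Fads3, in 6 for Hsd17b12, in 5 for Elovl3 and in 2 for Mcat, the last without WT female 1 or 4. In WT males against WT females, 9 of 21 supply genes fell, where 5.95% of all genes were called as lower. Among the 9 were Acss2 (-2.69, SE 0.52, edgeR adjusted p = 0.0202) and Slc25a1 (-1.49, SE 0.36, edgeR adjusted p = 0.0355). Insig1 fell by 1.59 in the same comparison, Fads3 by 0.70 and Hsd17b12 by 0.81, while Elovl7 rose by 2.02. Leaving out 1 library lost the call in 7 of 8 fits for Slc25a1, Insig1, Fads3 and Hsd17b12, in 3 for Elovl7 and in 2 for Acss2. In the interaction of the mutants' difference with sex, Insig1 (-2.27), Mlycd (-0.82) and Tecr (-0.97) were called, where 0.868% of all genes were. When 1 library was left out, Insig1 did not pass in 13 of 16 fits (adjusted p up to 0.103), Mlycd in 11 (up to 0.0843) and Tecr in 12 (up to 0.0815). No gene of the 4 lists was called in either mutant against WT in males.

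The genes whose pattern over the 24 libraries was most like the mean of the 10 were ranked by the SD of the difference in log2(CPM + 1), where 0 would be an identical pattern and 0.90 is the value of a gene that does not vary. Among 9894 other genes that averaged 10 CPM or more, Pdhb (0.23), Slc25a1 (0.25), Pcx (0.33), Pygl (0.37), Aacs (0.38), Tkt (0.38), Gbe1 (0.39) and Pdha1 (0.40) came closest. Pdhb and Pdha1 encode subunits of pyruvate dehydrogenase, Pcx pyruvate carboxylase, Tkt transketolase, Pygl glycogen phosphorylase and Gbe1 the glycogen branching enzyme. Among the 10 genes, each against the mean of the other 9, Fasn (0.33), Me1 (0.35) and Thrsp (0.36) were closest and Elovl6 (1.01) and Scd2 (1.05) farthest. The closest pair was Acaca and Me1 (0.32) and the farthest Scd2 and Elovl6 (1.61). These values are descriptions over libraries that share groups, sex and depth. The ratio of Elovl6 to Elovl5 in CPM was 8.82 ± 4.00 (SD, n = 4) in Y665H females, 2.89 ± 1.17 in Y665F females and 0.80 ± 0.38 in Y665H males.

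The positions of the 10 genes are RefSeq spans on GRCm38.p6. Fasn is at chr11:120805958-120825166, Acaca at chr11:84129635-84401651, Acly at chr11:100476352-100528000, Acacb at chr5:114146321-114250761, Elovl6 at chr3:129532386-129638495 and Thrsp at chr7:97412933-97417550. Elovl5 is at chr9:77917365-77984519 and Me1 at chr9:86581363-86695914, and Scd1 is at chr19:44394450-44407709 and Scd2 at chr19:44293676-44306864. Exons of Me1 overlap those of A330041J22Rik on the opposite strand, whose counts were 0.0517% of those of Me1.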

How the data were processed

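RNA of 24 adipose libraries, 4 in each of 6 groups, was counted per gene symbol. The deposited files hold raw counts for 24421 symbols, made by the authors with rRNA-depleted stranded libraries sequenced as pairs, per the labels' protocols. Per the submitters' processing notes, mm10 was the genome build and FastQC 0.11.9, Trimmomatic 0.36, STAR, SAMtools 1.9, Picard 2.9.2 and HTSeq 0.9.1 were used. The annotation and the strand setting are not given in the sources used here, so reads of overlapping or antisense genes, and of the paralogs Scd1 and Scd2, may have been split. The 5 rows that name no gene held 24.8 to 39.7% of all counts and were left out.

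Genes were tested with edgeR 4.0.16 (TMM scaling, filterByExpr, glmQLFit, glmQLFTest) in R 4.3.3 on the 8 libraries of 2 groups or, for interactions, on 16, with Benjamini-Hochberg adjustment over all genes tested. There were 10 such comparisons, 7 between 2 groups and 3 interactions. The fit was tested on simulated data with the same dispersion for every gene, which does not show how it performs on these data. Groups were taken from the titles. Libraries of a group differed by more than sampling noise, with a chi-square per degree of freedom of at least 17.3. The alternatives were DESeq2 1.42.0, other scalings, no filter, all 24 libraries, a replicate block and leaving out each library. Scaling by adipocyte markers was added after seeing the data. The 10 genes, the pathway lists and the marker lists were chosen with earlier results of these data known. The 10 genes are named in each comparison, and of a pathway list at most the 4 called genes with the smallest p, besides Srebf1, Mlxipl, Nr1h3, Insig1, Mid1ip1, Slc25a1, Acss2, G6pdx, Elovl3, Fads1 and Fads2.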

Additional observations from a re-analysis of the deposited data

Results flagged for a closer look

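Scd2 in WT female 2 stood apart from the other libraries of its group, at 1457 CPM against 348, 485 and 331 CPM. Its gap to the nearest library was 0.863 of the group's range, above Dixon's critical value for 4 libraries. Chance alone flags about 1 in 20 sets of 4 libraries tested in this way, and this was the only 1 flagged of 66.

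The difference between Y665H and Y665F differed between the sexes for 6 genes by the interaction test of edgeR, with the male difference smaller in each case. Among the fatty acid synthesis genes these were Acacb (-2.03 on the log2 scale), Elovl5 (-0.84) and Elovl6 (-2.99). Among the other lists they were Insig1 (-2.27), Mlycd (-0.82) and Tecr (-0.97). Adjusted p-values reached 0.0843 for Acacb, 0.0724 for Elovl5 0.0843 for Elovl6, 0.103 for Insig1, 0.0843 for Mlycd and 0.0815 for Tecr when 1 library was left out.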

How the results depend on the processing

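Between Y665H and Y665F females, 7 or 8 of the 10 genes were called under every alternative except leaving out 1 library, which gave 3 to 8. Apart from leaving out 1 library, the share of all genes called ran from 10.2% (replicate block) to 61.7% (adipocyte marker scaling). Elsewhere the number of the 10 genes called depended more on the settings. For Y665F against WT females it was 1, and 0 without a filter, with all 24 libraries, with adipocyte marker scaling or without any 1 library (0 to 0). The shares of all genes called were 3.33%, and 1.91% without a filter, 2.98% with all 24 libraries and 8.00% with adipocyte marker scaling. For Y665H against WT females it was 1, but 3 with DESeq2, 0 with the replicate block, 0 with adipocyte marker scaling and 0 to 1 without 1 library. For WT males against females it was 4, but 8 with DESeq2, 8 with all 24 libraries, 1 with the replicate block (Elovl6), 2 with adipocyte marker scaling and 0 to 5 without 1 library. For the interaction of Y665H against Y665F with sex it was 3, but 7 with DESeq2, 1 with all 24 libraries, 0 with adipocyte marker scaling and 0 to 3 without 1 library. The cause of these changes was not tested.

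Directions were followed for all 10 genes in the comparisons of females, of WT males against females and in the interaction between the mutants. In the comparisons between male groups and the interactions of each mutant against WT, only Acacb and Elovl5 were followed. Among the values followed, directions turned mainly under adipocyte marker scaling, which was chosen after seeing the data. In Y665F against WT females Scd1 was then at 0.14 and Elovl5 at 0.17, in Y665F against WT males Elovl5 at -0.21, in Y665H against WT males Elovl5 at -0.26, in Y665H against Y665F females Scd2 at -0.35 and in the males Elovl5 at -0.051. In WT males against females Scd2 was at 1.02 and Elovl5 at 0.25, and in the Y665F interaction with sex Acacb was at -0.13 and Elovl5 at -0.38. Scd2 in WT males against females was at 0.14 with library totals, 0.069 with the replicate block and -0.46 to 0.71 without 1 library. Without 1 library the log2 fold changes in Y665F against WT females ran from -0.41 to 0.17 for Scd1 and -0.94 to 0.052 for Scd2, and in Y665H against WT females from -0.58 to 0.41 for Scd2.

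Same-numbered libraries did not deviate together in every pair of any comparison, with correlations from -0.37 to 0.72. In WT males against females, 3 males correlated best with the female of the same number. The numbers are not stated to pair samples, and these correlations cannot tell whether they do. Counts of called genes over all genes differed by over 1.5 times as follows. Y665H against Y665F females gave 2689, but 1583 with the block and 9563 with adipocyte marker scaling, and the males gave 164, but 1085 with DESeq2, 400 with all 24 libraries and 0 with the block. Y665F against WT females gave 521, but 2047 with DESeq2, 1164 with library totals and 1251 with adipocyte marker scaling, and the males gave 0, but 1129 with DESeq2 and 2261 with all 24 libraries. Y665H against WT females gave 516, but 1751 with DESeq2, 250 with all 24 libraries, 32 with the block and 1084 with adipocyte marker scaling, and the males gave 0, but 119 with DESeq2 and 203 with all 24 libraries. WT males against females gave 2079, but 4483 with DESeq2, 5987 with all 24 libraries, 825 with the block and 3423 with adipocyte marker scaling. The interaction of Y665H against Y665F with sex gave 143, but 676 with DESeq2, 341 with library totals, 83 without a filter, 45 with all 24 libraries and 37 with adipocyte marker scaling. The Y665F interaction gave 0, but 1181 with DESeq2 and 1 with all 24 libraries. The Y665H interaction gave 2, but 718 with DESeq2, 72 with library totals, 201 with all 24 libraries, 1 with the block and 0 with adipocyte marker scaling. Scaling also moved the share of called genes that were higher. With library totals it went from 69.3 to 88.1% for Y665F against WT females, from 54.6 to 75.8% for WT males against females, from 20.3 to 72.7% for the interaction between the mutants and from 2 of 2 to 64 of 72 genes for the Y665H interaction. With adipocyte marker scaling it went to 97.8% for Y665F against WT females, 96.7% for WT males against females, 78.4% for the interaction between the mutants, from 45.9 to 6.83% for Y665H against WT females, from 50.5 to 1.61% for Y665H against Y665F females and from 12.2 to 1.96% in the males.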
